A study of Mus musculus with 16 samples.

Results

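The transport genes of chloride and bicarbonate secretion were followed in mouse jejunal enteroids, which are epithelial cultures grown from crypts, after loss or mutation of the apical trafficking motor myosin Vb (MYO5B). The genes were chosen by name for their place in the secretory pathway, with earlier results of these data known, and are Cftr, Slc26a3, Slc26a6, Slc12a2, Slc4a4, Kcnn4, Kcnq1, Ano1 and Atp1b1, 9 of the 54532 genes counted. RNA of 16 cultures was sequenced in 4 groups of 4 cultures, which the study describes as coming from 4 mice of each group, and all cultures had been moved to a medium that favors differentiation. For MYO5BΔIEC enteroids, crypts of mice of the genotype Vil1-CreERT2;Myo5b flox/flox were used, and the cultures had 1 µM 4-OH-tamoxifen for 24 h to delete Myo5b and then vehicle for 2 days. MYO5B(G519R) enteroids came from Vil1-CreERT2;Myo5b flox/G519R mice and had the same induction, so that 1 allele carried the point mutation and the other was deleted. The fourth group was MYO5BΔIEC enteroids that received 100 nM Compound-1, an agonist of the lysophosphatidic acid receptor LPAR5, for the 2 days. The sample titles of the controls and of MYO5B(G519R) enteroids name no vehicle. In the knockout and mutant groups, and in the controls as the methods describe them, Cre is driven by the villin promoter, which is active in epithelial cells. The controls are described in the methods as flox/flox cultures given ethanol and elsewhere as healthy littermates, and the labels name tamoxifen for the mutant and knockout cultures only. If the controls had none, an effect of the drug itself cannot be told apart from that of MYO5B loss. The methods describe the crypt donors as adult, and whether groups shared mice is not given in the sources used here.

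As background, an intestinal crypt cell secretes chloride by loading it across the basolateral membrane with sodium and potassium and releasing it through apical channels. The sodium pump keeps the sodium gradient, basolateral potassium channels recycle potassium and hold the voltage that drives anions out, and cyclic AMP, cyclic GMP and calcium open the channels. Bicarbonate leaves through the same apical channel or by exchange for luminal chloride, and mature surface cells use that exchange to absorb chloride. MYO5B moves recycling endosomes to the apical membrane, and its loss in humans causes microvillus inclusion disease, a congenital diarrhea. Counts of RNA do not show where a transporter sits in the cell.

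The upstream sequences of Slc26a3, Cftr and Ano1, which passed at least 1 comparison with control below, are shown because the data bear on the amount of their RNA. They are the 250 bases before the RefSeq start site of each gene (assembly GRCm38.p6, the build of the deposited tables), on the coding strand, 5′ to 3′. For Slc26a3 and Ano1 the RefSeq start lies inside the deposited gene span given below, which reaches further upstream. For Cftr it is the start of the deposited span. Capitals mark matches to any of 7 motifs searched. RefSeq entries were matched for 7 of the 9 genes, all except Slc12a2 and Kcnq1.
Slc26a3, plus strand, chr12:31437969-31438218: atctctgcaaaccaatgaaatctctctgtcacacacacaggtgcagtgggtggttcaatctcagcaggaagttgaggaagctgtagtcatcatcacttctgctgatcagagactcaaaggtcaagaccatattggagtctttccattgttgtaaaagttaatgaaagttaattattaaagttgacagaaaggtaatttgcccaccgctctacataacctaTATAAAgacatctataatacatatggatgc
Cftr, plus strand, chr6:18170437-18170686: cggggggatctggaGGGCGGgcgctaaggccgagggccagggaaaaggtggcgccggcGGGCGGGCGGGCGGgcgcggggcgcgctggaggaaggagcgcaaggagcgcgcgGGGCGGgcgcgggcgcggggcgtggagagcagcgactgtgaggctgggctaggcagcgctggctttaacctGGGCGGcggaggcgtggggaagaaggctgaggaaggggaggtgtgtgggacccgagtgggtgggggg
Ano1, minus strand, chr7:144738574-144738823: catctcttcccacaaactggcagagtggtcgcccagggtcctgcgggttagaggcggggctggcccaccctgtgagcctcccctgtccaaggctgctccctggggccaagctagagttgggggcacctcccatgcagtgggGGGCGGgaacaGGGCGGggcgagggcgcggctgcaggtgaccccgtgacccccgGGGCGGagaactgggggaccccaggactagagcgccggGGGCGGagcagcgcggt

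Motifs were searched on both strands from 250 bases before to 50 after the start, and each is set against the 32851 RefSeq windows of that length. TATAAA, the TATA box, was present in the window of Slc26a3 once, at position 221 counted from the window's 5′ end, and is present in 13.6% of all windows. GGGCGG, the Sp1 motif, was matched 6 times in the Cftr window, with overlapping matches counted, and 4 times in that of Ano1, and is present in 35.7% of all windows. Slc26a3 also stood apart in base composition, with 39.3% G and C, lower than in all but 8.92% of windows. Cftr had 71.3% and Ano1 had 71.7%, above 92.2% and 92.6% of windows. The other motifs, TTTATG (CDX, in 11.9% of windows), the HNF1 motif (0.00913%), CAAAGTCCA (HNF4, 0.475%), GGAATG (TEAD, 14.7%) and TGACGTCA (cyclic AMP response element, 1.79%), were not matched in these 3 windows. A match describes letters in the window and does not show that a factor binds there.

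Between 27804968 and 40101729 reads were counted per culture. Levels compared between cultures are CPM, read counts put on a common scale with library sizes from edgeR's TMM method, and on this scale 3 counts, the upper limit that a count of 0 allows, are 0.0736 to 0.111 CPM, which covers counting error only. Every gene of the 9 had far more reads than that in every culture. Groups were compared in pairs by edgeR's quasi-likelihood test on counts, with p-values adjusted over all genes that reached 10 counts in 2 or more of the 8 cultures, and every edgeR adjusted p is from this test. A gene is said to rise or fall where that p was under 0.05.

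One culture stood apart from all others and bears on every comparison with control. In control culture 1, 33.4% of 13545 expressed genes lay over 1.5-fold away from the mean of the other 3 controls, whereas each of the other 15 cultures had 1.56% to 17.8% of genes that far from the rest of its group. Its log2 profile correlated with the other controls at a Pearson r of 0.940 to 0.949 across genes, and the other controls reached 0.993 among themselves. Of the secretion genes, 7 of 9 were over 1.5-fold away in this culture. Cftr was 2.36 times the mean of the other controls, Slc4a4 2.66, Ano1 2.64, Kcnq1 2.12, Atp1b1 1.84 and Slc12a2 1.75 times, and Slc26a3 was at 0.593 of it. The same culture had summed enterocyte markers of 3167 CPM against 12730 to 15880 in the other controls, and summed stem cell markers of 2166 CPM against 4081 to 6149. Its Paneth cell markers summed to 3190 CPM against 6496 to 7588, whereas its tuft cell markers were higher, at 64.9 CPM against 19.5 to 25.3. The label gives no reason to leave the culture out, so the comparisons include it, and calls that change when it is left out are given beside them. The part of these marker differences in the results was not tested.

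**Figure D1:**
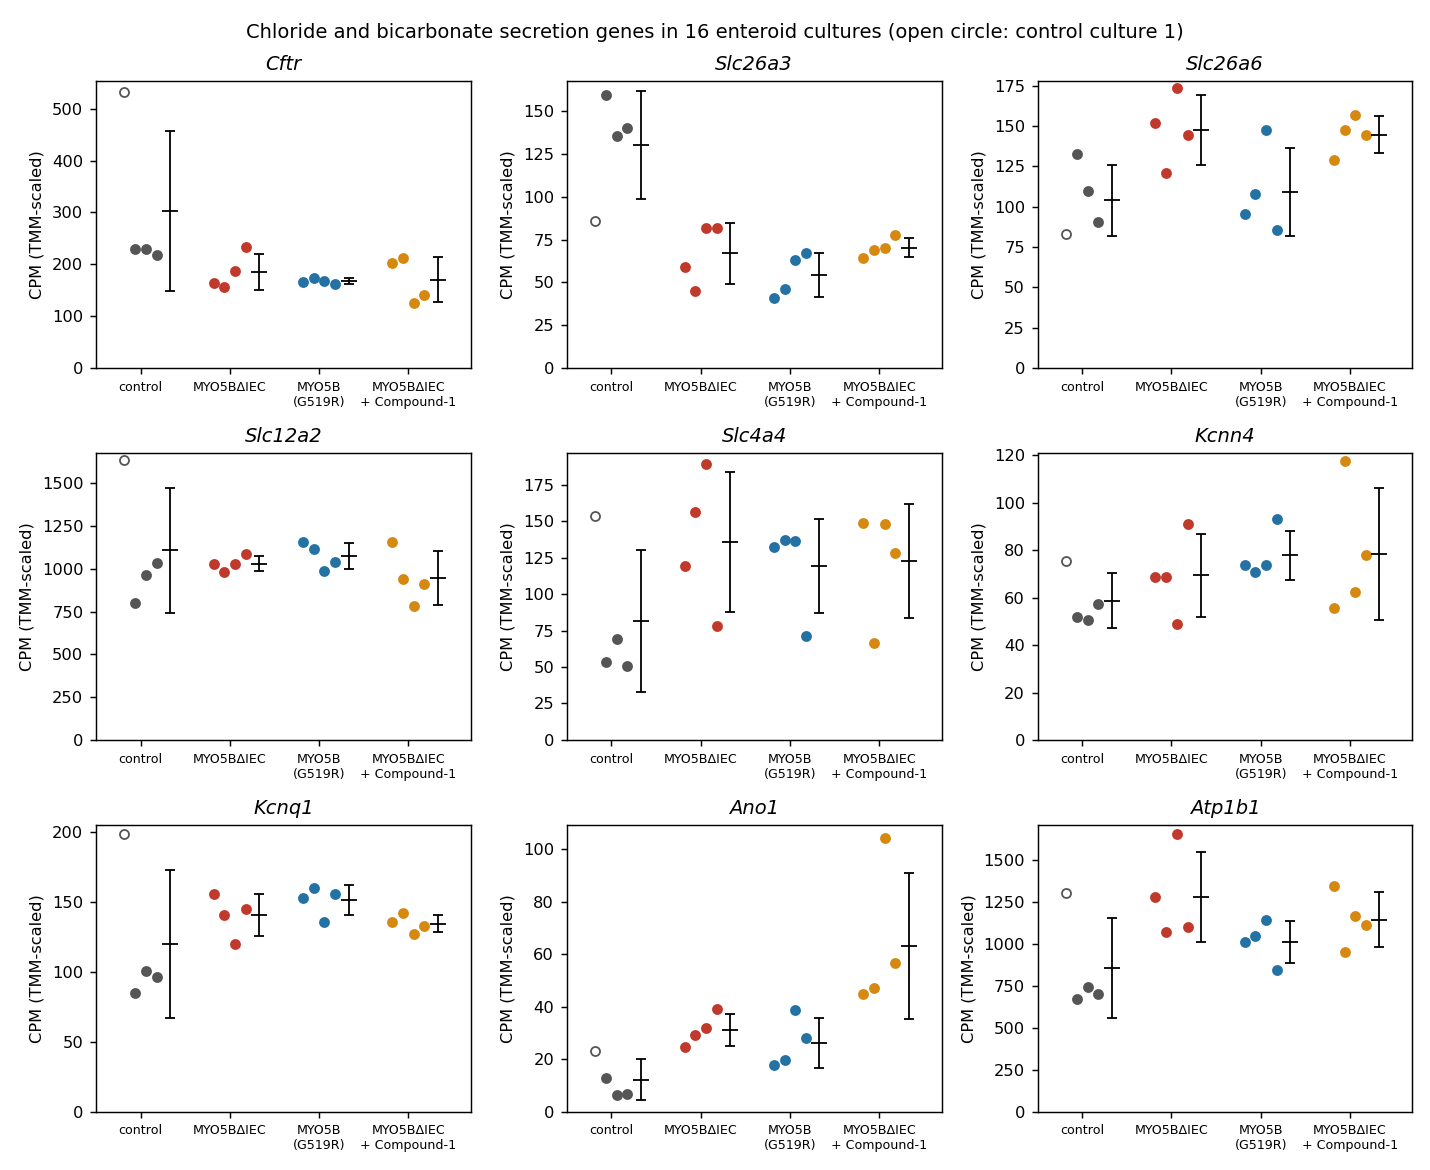
TMM-scaled CPM (linear axis from 0) of the 9 genes in each of 16 cultures, with the mean and SD of each group of 4 beside its points. The open circle is control culture 1, which is the highest control for 7 genes and the lowest for Slc26a3 and Slc26a6.

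Markers placed the cultures in the epithelium. In MYO5BΔIEC, MYO5B(G519R) and Compound-1-treated enteroids, 13.5%, 13.1% and 15.7% of all genes tested rose against control. In the same order 13.8%, 13.7% and 13.7% fell, and the marker calls below are to be read beside these shares. The 4 epithelial markers summed to 4644 ± 499.6 CPM (SD, n = 4) in control and to 6724 ± 122.4, 6401 ± 701.7 and 8528 ± 1366 in MYO5BΔIEC, MYO5B(G519R) and Compound-1-treated enteroids, with Krt8 the most abundant. Of the 5 fibroblast markers, Dcn and Lum had no read in any of 16 cultures, and the list summed to 0.151 CPM in control against 0.554 in MYO5BΔIEC, 0.517 in MYO5B(G519R) and 0.187 after Compound-1. Its most abundant gene, Col1a1, had at most 17 reads in a culture and rose in MYO5B(G519R) (log2 fold change 2.39, edgeR adjusted p = 0.0476). The 3 smooth muscle markers summed to at most 0.345 CPM in any culture. Of the 4 immune markers, which summed to 3.10, 6.35, 4.26 and 5.22 CPM in the same order of groups, the most abundant was Cd68, which rose in MYO5BΔIEC (1.09, edgeR adjusted p = 0.0332). The ileal marker Slc10a2 was low but rose in all 3 comparisons with control, from 1.80 ± 0.519 CPM to 6.43 ± 2.87, 4.18 ± 2.37 and 10.6 ± 4.97 CPM (edgeR adjusted p = 0.00382, 0.0392 and 0.00398), while Fabp6 averaged 0.133 CPM over all cultures. The summed stem cell markers, mainly Olfm4, were 4190 ± 1631 CPM in control against 1237 ± 522.6 in MYO5BΔIEC, 1752 ± 534 in MYO5B(G519R) and 1045 ± 491.6 after Compound-1, and the only one of the 4 that fell in any comparison with control was Olfm4, which fell in all 3. The 5 Paneth cell markers, led by Lyz1, summed to 6062 ± 1966 CPM in control and 3714 ± 607.5, 3330 ± 430.9 and 3750 ± 633.8 CPM in the other 3 groups, and Itln1 fell in all 3 comparisons and Lyz1 in MYO5BΔIEC and MYO5B(G519R). Of the 4 tuft cell markers, which summed to 32.8 ± 21.5 CPM in control against 20.9 ± 3.12, 22.0 ± 1.63 and 20.2 ± 7.03 CPM, Pou2f3 fell in all 3 comparisons (-1.04, -0.76 and -1.48, edgeR adjusted p = 0.0166, 0.0474 and 0.00945), and Dclk1 and Trpm5 fell in treated enteroids. The 5 enteroendocrine markers summed to 735.3 ± 62.9 CPM against 1007 ± 299.1, 744.6 ± 136.2 and 965 ± 539 CPM. Among them Chga rose in all 3 (1.24, 0.78 and 1.32, edgeR adjusted p = 0.0116, 0.0412 and 0.0385), Chgb rose in MYO5BΔIEC and Gcg fell in MYO5B(G519R). The 4 proliferation markers summed to 1516 ± 166 CPM in control against 1021 ± 86.9, 1278 ± 130.2 and 960.4 ± 262.1 CPM, and 3, 2 and 2 of them fell, Pcna and Ccnb1 in each comparison. The 8 enterocyte markers summed to 11130 ± 5512 CPM in control against 9007 ± 3146, 6667 ± 1288 and 5767 ± 1042 CPM. Sis fell in MYO5B(G519R), Sis, Fabp1 and Fabp2 fell in treated enteroids, and Alpi rose in MYO5BΔIEC and treated enteroids. Mitochondrial genes took 6.41% to 10.4% of the reads in the controls and 3.79% to 6.63% in the other 12 cultures. Leaving out control culture 1 raised the share of all genes called from 27.4%, 26.8% and 29.4% to 42%, 46.2% and 42.1% in the 3 comparisons. With control culture 1 left out, 1 marker call was lost in MYO5B(G519R) (Pou2f3, -0.68, edgeR adjusted p = 0.0542) and 1 in treated enteroids (Dclk1, -0.82, edgeR adjusted p = 0.0939), and 9, 13 and 5 were gained over all marker lists in the 3 comparisons. Among those gained, Fabp1 and Fabp2 fell in MYO5BΔIEC and MYO5B(G519R). The goblet cell mucin Muc2 rose in all 3 (1.49, 1.25 and 2.23, edgeR adjusted p = 4.92e-05, 0.000378 and 0.00111). Of the stem cell markers, Lgr5 rose in MYO5BΔIEC and MYO5B(G519R) (0.45 and 0.63, edgeR adjusted p = 0.0256 and 0.0164) and Smoc2 in MYO5B(G519R) (0.40, edgeR adjusted p = 0.0462). Defa24 and Fabp6 fell in all 3, Mmp7 in MYO5BΔIEC and MYO5B(G519R), and Lyz1 in treated enteroids. Apoa1 fell in MYO5B(G519R) and treated enteroids, Tff3 in MYO5BΔIEC and Ang4 in MYO5B(G519R). Cdh1 rose in MYO5B(G519R), and the Kit and Hcn4 calls are given with Ano1. In bulk RNA, fewer cells of a type cannot be told apart from less RNA per cell, and the part of these shifts in the secretion genes was not tested.

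Myo5b (chromosome 18, 74440936 to 74771493) checked the labels only in part, since reads on the whole gene include those of deleted and mutant transcripts. It stood at 189 ± 29.9 CPM in control against 128.4 ± 31.0 in MYO5BΔIEC, 150.4 ± 17.0 in MYO5B(G519R) and 110.7 ± 26.8 after Compound-1 (SD, n = 4 each). Relative to control, MYO5BΔIEC differed by -0.55 on the log2 scale (SE 0.19, edgeR adjusted p = 0.0503), and the values were -0.33 (SE 0.14, edgeR adjusted p = 0.109) for MYO5B(G519R) and -0.77 (SE 0.19, edgeR adjusted p = 0.0146) for treated enteroids. Without control culture 1 it was lower in all 3 (-0.63, -0.37 and -0.82, edgeR adjusted p = 0.0155, 0.0286 and 0.00654).

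To compare the genes with each other, levels per gene length are needed, and the authors' FPKM were used for this and for the alternative limma fits. In control enteroids the pump subunit Atp1b1 was highest with 271.2 ± 98.6 FPKM, followed by the chloride loader Slc12a2 with 165.9 ± 56.8 FPKM, and the ranges of the 4 cultures overlapped between these neighbors. Both lay above 97% of the genes over 1 FPKM. The apical channel Cftr was next with 38.1 ± 20.0 FPKM, with no overlap between its range and that of Slc12a2. From Cftr down, the ranges of neighbors overlapped through Kcnq1 (28.7 FPKM), Slc26a3 (19.9) and Slc26a6 (18.7). Kcnn4 (11.2 FPKM) and Slc4a4 (7.40) formed a lower pair with overlapping ranges, and Ano1 was last at 1.92 ± 1.24 FPKM, below the range of Slc4a4. Atp1b1 and Slc12a2 kept the first and second place in all 4 groups and Ano1 the last. Slc26a3 moved from the fifth place in control to the eighth in each of the other groups, at 10.4, 8.50 and 10.9 FPKM in MYO5BΔIEC, MYO5B(G519R) and treated enteroids, and Kcnq1 took the third place from Cftr in each of them. The range of Slc26a3 overlapped that of Slc4a4, the gene next above it, in each of these groups. In MYO5BΔIEC the ranges of Kcnq1 and Cftr overlapped too. In treated enteroids Ano1 reached 10.02 ± 4.58 FPKM, and its range then overlapped that of Slc26a3.

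**Figure D2:**
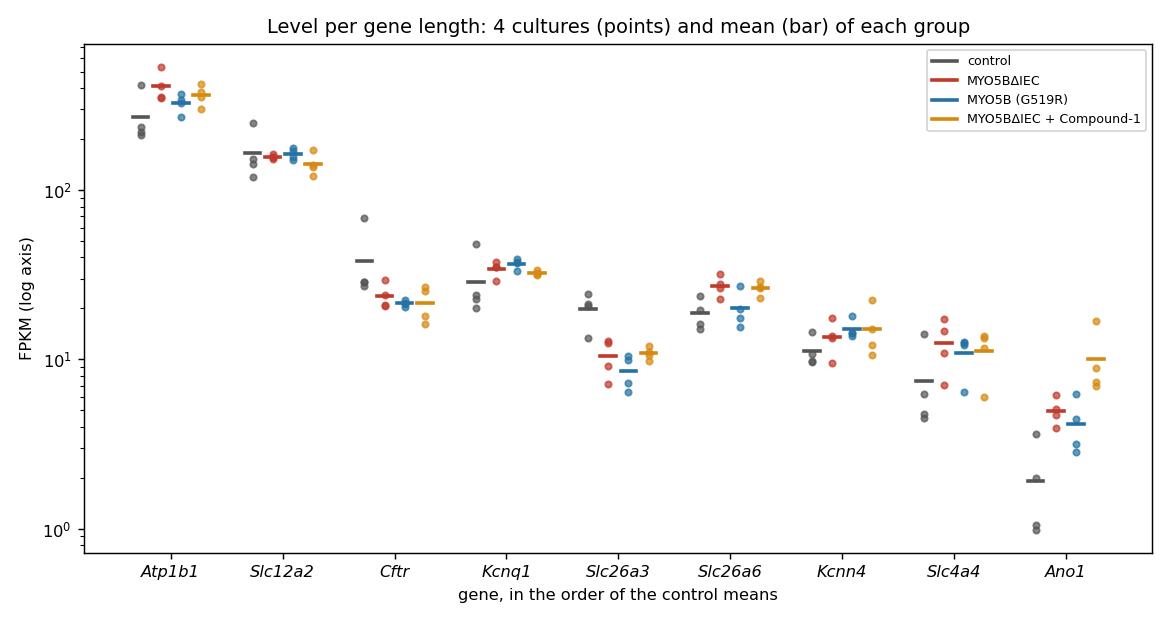
FPKM per gene on a log axis, with 4 cultures (points) and the mean (bar) of each group, genes ordered by the control mean. Atp1b1 and Slc12a2 lie above 100 FPKM in every culture, and Ano1 is the lowest gene by its mean in each group.

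Against control, 2 of the 9 genes passed the threshold in MYO5BΔIEC enteroids, Ano1 (higher) and Slc26a3 (lower), where 27.4% of all 17951 genes tested did. In MYO5B(G519R) enteroids 2 of 9 passed, Slc26a3 and Cftr, both lower, where 26.8% of 17829 genes did. In treated MYO5BΔIEC enteroids 2 of 9 passed, Ano1 (higher) and Slc26a3 (lower), where 29.4% of 17937 genes did. These shares of the 9 are near those of all genes. Without control culture 1, the genes that passed were 5 (4 higher, 1 lower), 7 (5 higher, 2 lower) and 5 (4 higher, 1 lower) of the 9, beside 42%, 46.2% and 42.1% of all genes tested (higher in 21.2%, 24% and 22.9%, lower in 20.8%, 22.1% and 19.2%). The groups then did not overlap for 5, 7 and 5 of the 9, beside 47.2%, 50.2% and 49.4% of all genes. The median log2 fold change of the 9 was 0.25, 0.24 and 0.42 in the 3 comparisons, against -0.01, -0.05 and -0.05 over all genes, and 0.42, 0.55 and 0.54 without that culture, against 0, -0.01 and -0.01. The 3 comparisons share their control cultures and so are not independent of each other.

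**Figure D3:**
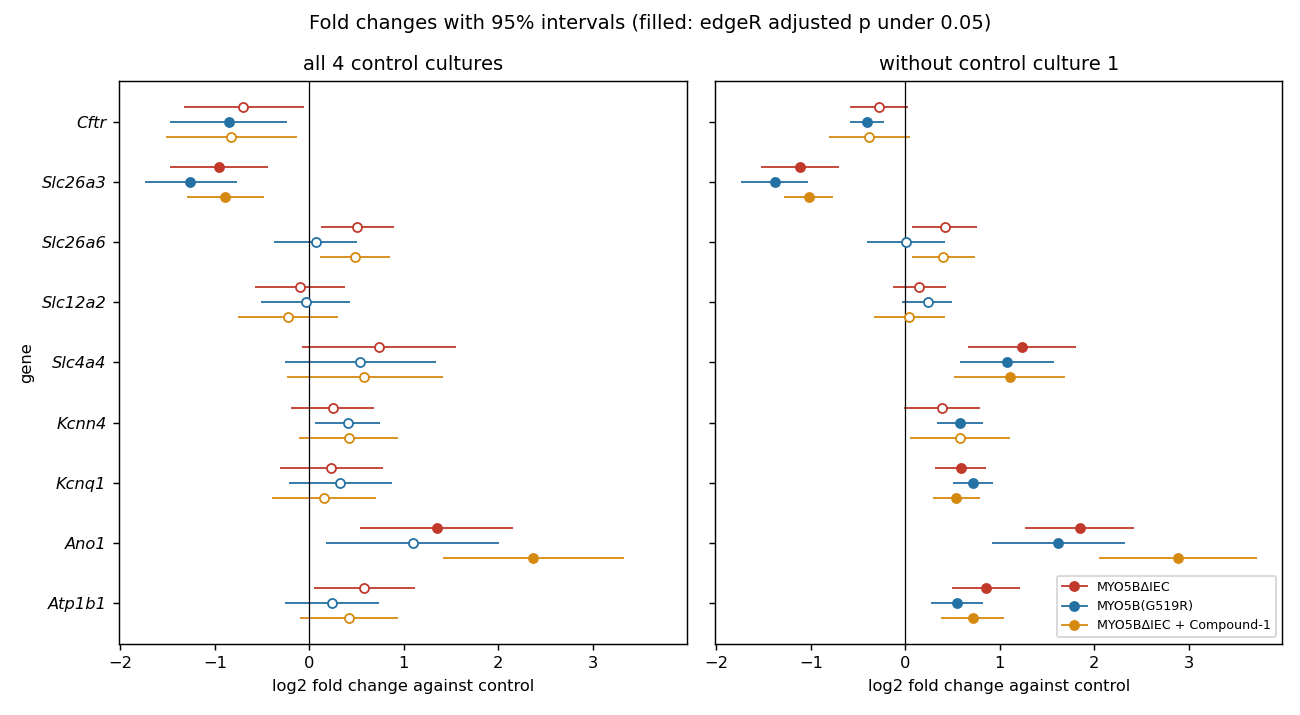
Log2 fold change against control of the 9 genes with 95% intervals from edgeR's fit, using all 4 controls (left) and without control culture 1 (right); filled points have an edgeR adjusted p under 0.05. Slc26a3 lies to the left of 0 and is filled at all 6 points, and Slc4a4, Kcnq1 and Atp1b1 are filled on the right side only.

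Slc26a3 (chromosome 12, 31390871 to 31473917) encodes the apical exchanger DRA, which takes up luminal chloride for bicarbonate and is mutated in congenital chloride diarrhea. Its 4 control cultures had 85.9, 159.4, 135.5 and 139.8 CPM, and the MYO5BΔIEC cultures had 59.0, 45.1, 81.9 and 81.5 CPM. The MYO5B(G519R) cultures had 41.0, 46.2, 63.3 and 67.4 CPM, and the treated cultures 64.2, 68.9, 70.0 and 77.6 CPM. Every culture of the 3 knockout or mutant groups was below every control, the low control culture 1 included, while groups that did not overlap in either direction made up 26.9%, 27.4% and 27.9% of all genes tested in the 3 comparisons. Slc26a3 fell by 0.96 on the log2 scale in MYO5BΔIEC (SE 0.23, 95% interval -1.47 to -0.44, edgeR adjusted p = 0.0128). It fell by 1.26 in MYO5B(G519R) (SE 0.22, 95% interval -1.74 to -0.77, edgeR adjusted p = 0.00411) and by 0.89 in treated enteroids (SE 0.19, 95% interval -1.30 to -0.48, edgeR adjusted p = 0.00798). Without control culture 1 the log2 fold changes were -1.11, -1.38 and -1.02 (edgeR adjusted p = 0.000836, 0.000113 and 0.000504), and the gene stayed under the threshold whichever single culture was left out. The exchanger that works beside it, Slc26a6 (PAT-1, chromosome 9, 108853283 to 108913049), did not pass in any of the 3 comparisons. It averaged 103.9 ± 22.1 CPM in control against 147.5 ± 21.6 in MYO5BΔIEC, 109 ± 27.2 in MYO5B(G519R) and 144.5 ± 11.6 after Compound-1. The log2 fold changes of Slc26a6 were 0.51 (95% interval 0.12 to 0.90, edgeR adjusted p = 0.0517), 0.07 (-0.37 to 0.51, edgeR adjusted p = 0.834) and 0.48 (0.11 to 0.85, edgeR adjusted p = 0.0542). The first and the last lay close to the threshold and passed with DESeq2 (DESeq2 adjusted p = 0.0258 and 0.0279), and without control culture 1 they were 0.42 and 0.40 (edgeR adjusted p = 0.0529 and 0.0530).

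Cftr (chromosome 6, 18170687 to 18322768) encodes the cyclic AMP-activated channel through which chloride and bicarbonate leave the cell. Its control cultures had 532.9, 228.8, 229.8 and 218 CPM, so that the control mean of 302.3 CPM lies above 3 of its 4 cultures. The MYO5BΔIEC cultures had 163.8, 157.3, 187.9 and 232.8 CPM, the last of which was inside the control range. The MYO5B(G519R) cultures were close together at 166.2, 174.2, 168.5 and 161.4 CPM and all below the controls, and the treated cultures, with 202.9, 212.6, 125.5 and 141.7 CPM, were below the controls too. The log2 fold change came to -0.70 (SE 0.29, 95% interval -1.33 to -0.06, edgeR adjusted p = 0.0943) in MYO5BΔIEC, -0.85 (SE 0.28, 95% interval -1.47 to -0.24, edgeR adjusted p = 0.0451) in MYO5B(G519R) and -0.83 (SE 0.31, 95% interval -1.52 to -0.13, edgeR adjusted p = 0.0703) in treated enteroids. Without control culture 1 these values shrank to -0.28, -0.40 and -0.38 (edgeR adjusted p = 0.138, 0.00261 and 0.141). The fall in MYO5B(G519R) passed without that culture, at a smaller size, and missed the threshold without control culture 3 (edgeR adjusted p = 0.0537) and without any one of the 4 MYO5B(G519R) cultures (edgeR adjusted p = 0.0931 to 0.0996). It was also lost with DESeq2 size factors, with a block for replicate number and in both limma fits. The block added a fall of Cftr in treated enteroids. An antisense transcript, Gm15592, overlaps Cftr at 0.711 CPM, and the counting of strand is not given in the sources used here.

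Ano1 (chromosome 7, 144588549 to 144751974) encodes TMEM16A, a calcium-activated chloride channel. The control cultures had 22.9, 12.9, 6.34 and 6.85 CPM and the MYO5BΔIEC cultures 24.7, 29.0, 32.1 and 39.1 CPM, with no overlap. The MYO5B(G519R) cultures had 17.9, 19.9, 38.9 and 28.1 CPM, of which the 2 lowest lay below control culture 1 and above the other controls. The treated cultures had 44.9, 47.2, 104.3 and 56.5 CPM, above every culture of the other 3 groups. Ano1 rose by 1.35 on the log2 scale in MYO5BΔIEC (SE 0.37, 95% interval 0.54 to 2.16, edgeR adjusted p = 0.0206) and by 2.37 in treated enteroids (SE 0.43, 95% interval 1.41 to 3.33, edgeR adjusted p = 0.00559), and in MYO5B(G519R) its log2 fold change was 1.10 (SE 0.41, 95% interval 0.18 to 2.01, edgeR adjusted p = 0.0749). Without control culture 1 the values were 1.85, 2.89 and 1.62 in this order (edgeR adjusted p = 0.000289, 0.000618 and 0.00203). The rise in MYO5BΔIEC was lost when control culture 3, control culture 4 or MYO5BΔIEC culture 4 was left out (edgeR adjusted p = 0.0519, 0.0567 and 0.0508), and that in treated enteroids held whichever culture was left out. Ano1 is also a known marker of interstitial cells of Cajal, so other markers of that cell were read beside it. Kit, Etv1 and Hcn4 summed to 23.0 ± 8.95 CPM in control against 28.0 ± 2.75 in MYO5BΔIEC, 25.1 ± 2.84 in MYO5B(G519R) and 22.9 ± 2.16 after Compound-1. Of these 3, Kit is the most abundant and the usual marker of that cell. It was at log2 fold changes of 0.20, 0.11 and -0.06 against all controls and did not pass. Hcn4, at 0.964 CPM over all cultures, rose in MYO5BΔIEC and treated enteroids (1.94 and 1.70, edgeR adjusted p = 0.0252 and 0.0433). The sum was 35.9 CPM in control culture 1 and 16.7 to 22.3 CPM in the other controls. Without control culture 1 Kit rose in MYO5BΔIEC and MYO5B(G519R) (0.44 and 0.39, edgeR adjusted p = 0.0209 and 0.0237), but not in treated enteroids (0.22, edgeR adjusted p = 0.257). Hcn4 then rose in all 3 comparisons (2.54, 1.76 and 2.32, edgeR adjusted p = 0.00284, 0.0126 and 0.00694), and Etv1 did not pass. The part of these markers in the Ano1 result was not tested.

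**Figure D4:**
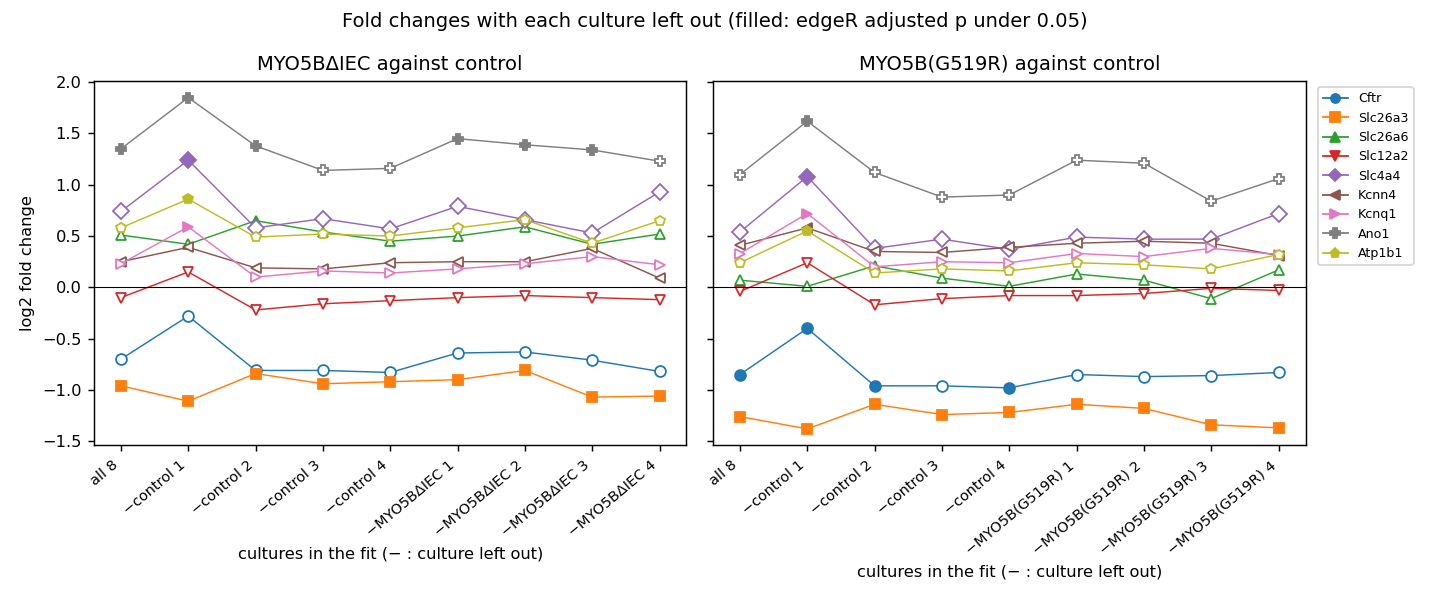
Log2 fold change against control of the 9 genes with all 8 cultures and with each culture left out in turn, in MYO5BΔIEC (left) and MYO5B(G519R) (right); filled symbols have an edgeR adjusted p under 0.05 and lines only join the symbols of a gene. Slc26a3 is filled in every fit, and most symbols move up in the fit without control culture 1.

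Neither gene of the basolateral entry steps passed with all controls. Slc12a2 (chromosome 18, 57878678 to 57946821), the sodium-potassium-chloride cotransporter NKCC1, had 1634 CPM in control culture 1 and 799.3 to 1037 CPM in the other controls. It ranged from 982.9 to 1085 CPM in MYO5BΔIEC, from 988.9 to 1156 in MYO5B(G519R) and from 781.2 to 1158 after Compound-1, all overlapping the controls. Its log2 fold changes were -0.10 (95% interval -0.57 to 0.38), -0.04 (-0.51 to 0.43) and -0.23 (-0.75 to 0.30), and they were 0.15 (-0.13 to 0.43), 0.24 (-0.03 to 0.50) and 0.04 (-0.33 to 0.42) without control culture 1, so its direction depended on that culture. With all controls the intervals did not exclude changes of up to 0.75. Slc4a4 (chromosome 5, 88886818 to 89239653), the sodium-bicarbonate cotransporter NBCe1, had 153.8 CPM in control culture 1 and 51.0 to 69.3 CPM in the others. It had 119.4, 156, 189 and 77.9 CPM in MYO5BΔIEC, 132.3, 136.9, 136.3 and 70.9 CPM in MYO5B(G519R), and 148.6, 66.2, 147.9 and 127.9 CPM in treated enteroids. Most of these cultures lay between control culture 1 and the other controls. With all controls its log2 fold changes of 0.74, 0.54 and 0.58 did not pass (edgeR adjusted p = 0.163, 0.294 and 0.263), and without control culture 1 they were 1.24, 1.08 and 1.11 and passed (edgeR adjusted p = 0.00303, 0.0028 and 0.00808).

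The calls of the potassium channels and the pump subunit likewise depended on control culture 1. Kcnq1 (chromosome 7, 143106362 to 143427042), which encodes the pore of the cyclic AMP-regulated basolateral potassium channel, had 199 CPM in that culture and 85.2 to 100.9 CPM in the other controls. It ranged from 120.2 to 156.2 CPM in MYO5BΔIEC, from 136 to 160.5 in MYO5B(G519R) and from 127.6 to 142.1 after Compound-1, all between these. Its log2 fold changes were 0.23, 0.33 and 0.16 with all controls (edgeR adjusted p = 0.522, 0.347 and 0.661) and 0.59, 0.72 and 0.54 without that culture (edgeR adjusted p = 0.00297, 0.000229 and 0.00454). The antisense transcript Kcnq1ot1, which lies within Kcnq1, averaged 9.78 CPM, and if reads were counted without strand the 2 share reads. Atp1b1 (chromosome 1, 164437109 to 164458355), the beta subunit that carries the sodium pump to the membrane, had 1301 CPM in control culture 1 and 673.4 to 745.4 CPM in the others. It ranged from 1073 to 1655 CPM in MYO5BΔIEC, from 841.7 to 1143 in MYO5B(G519R) and from 949.8 to 1346 after Compound-1, above the other 3 controls in every culture. Its log2 fold changes of 0.58, 0.24 and 0.42 did not pass with all controls (edgeR adjusted p = 0.0970, 0.462 and 0.205) and passed without that culture at 0.86, 0.55 and 0.72 (edgeR adjusted p = 0.00187, 0.00442 and 0.00446). Kcnn4 (chromosome 7, 24370263 to 24386690), the calcium-activated potassium channel, had 75.4 CPM in control culture 1 and 50.5 to 57.4 CPM in the others, against 48.8 to 91.3 CPM in MYO5BΔIEC, from 70.8 to 93.2 in MYO5B(G519R) and from 55.8 to 117.6 after Compound-1. Its log2 fold changes were 0.25, 0.41 and 0.42 (edgeR adjusted p = 0.393, 0.0769 and 0.212), and without control culture 1 only the second passed (0.39, 0.58 and 0.58, edgeR adjusted p = 0.107, 0.00141 and 0.0733).

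Other genes of the pathway, 65 in number, were read by role, and 53 of them were tested in each comparison with control. In MYO5BΔIEC 16 rose and 3 fell, in MYO5B(G519R) 13 rose and 4 fell, and in treated enteroids 16 rose and 5 fell, beside 13.5%, 13.1% and 15.7% of all genes that rose and 13.8%, 13.7% and 13.7% that fell. The median log2 fold change of the tested list was 0.26, 0.19 and 0.16, against -0.01, -0.05 and -0.05 over all genes. Without control culture 1, 19, 18 and 17 rose and 7, 8 and 8 fell, beside 21.2%, 24% and 22.9% of all genes that then rose and 20.8%, 22.1% and 19.2% that fell. None of the 19, 17 and 21 calls made with all controls was lost or changed direction, and 7, 9 and 4 were gained. Genes that had too few reads for the test included Kcne1, Kcne2, Best2, Slc26a9, Car1, Car4, Sctr, Ptger2, P2ry4 and Kcnmb1, as well as the pump genes Atp1b2 and Fxyd1.

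The largest fall among the potassium channel genes was that of Kcne3, the beta subunit that keeps Kcnq1 channels open in crypt cells, and it was the only one of 4 tested that passed with all controls. Kcnk1, a background potassium channel, also fell in MYO5BΔIEC once control culture 1 was left out (-0.44, edgeR adjusted p = 0.0195). Kcne3 had 104.6, 116, 93.2 and 104.6 CPM in the controls, and control culture 1 did not stand apart for this gene. The MYO5BΔIEC cultures had 36.0, 24.1, 23.6 and 60.3 CPM, the MYO5B(G519R) cultures 38.5, 37.7, 36.3 and 61.8 CPM, and the treated cultures 37.6, 66.8, 38.3 and 46.2 CPM. All 12 cultures were below all controls. Kcne3 fell by 1.53, 1.26 and 1.15 on the log2 scale (SE 0.27, 0.18 and 0.19, edgeR adjusted p = 0.00358, 0.00222 and 0.00458), and by 1.54, 1.23 and 1.12 without control culture 1 (edgeR adjusted p = 0.00136, 0.000295 and 0.00217). The pump regulator Fxyd3 fell by 0.62 in MYO5BΔIEC and by 0.72 in MYO5B(G519R) (edgeR adjusted p = 0.0487 and 0.0243).

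Of 3 other chloride channel genes tested, Clca1 and Clcn2 rose in all 3 comparisons and Ano6 in MYO5BΔIEC. Clca1, a secreted goblet cell protein that modulates calcium-activated chloride currents, had 36.0 to 39.7 CPM in the controls, against 101.3 to 137.5 in MYO5BΔIEC, from 87.4 to 164.7 in MYO5B(G519R) and from 132.8 to 712 after Compound-1, with log2 fold changes of 1.61, 1.65 and 3.33 (SE 0.14, 0.19 and 0.46, edgeR adjusted p = 0.000614, 0.00182 and 0.00398). The 6 goblet cell markers summed to 1984 ± 145.4 CPM in control against 2301 ± 181.6 in MYO5BΔIEC, 2261 ± 196.4 in MYO5B(G519R) and 3535 ± 1595 after Compound-1, with Fcgbp the most abundant. The members of that list moved in both directions. Fcgbp rose by 1.42, 1.42 and 2.20, Agr2 fell by 0.96, 0.82 and 0.64 and Spink4 by 0.62, 0.78 and 0.55 (edgeR adjusted p of 0.0402 or less for each). Tff3 fell in MYO5B(G519R) by 0.60 (edgeR adjusted p = 0.0474) and, without control culture 1, in MYO5BΔIEC too (-0.69, edgeR adjusted p = 0.00193). The part of these markers in the Clca1 result was not tested. Among the anion exchangers, Slc4a2, a basolateral chloride-bicarbonate exchanger, rose by 0.79, 0.74 and 1.12 (edgeR adjusted p = 0.00221, 0.00289 and 0.00596), and Slc26a2, a sulfate transporter, by 0.82 in MYO5BΔIEC and 1.45 in treated enteroids (edgeR adjusted p = 0.00532 and 0.0162). In MYO5B(G519R) the difference of 0.62 in Slc26a2 missed the threshold with all controls (edgeR adjusted p = 0.0517) and passed at 0.55 without control culture 1 (edgeR adjusted p = 0.0413), and Slc26a4, the exchanger pendrin, then rose in MYO5BΔIEC and MYO5B(G519R) (1.65 and 1.47, edgeR adjusted p = 0.012 and 0.0305). Of 6 basolateral cotransporters tested, 2 rose in each comparison and 1 fell in treated enteroids. The potassium-chloride cotransporter Slc12a7 rose by 0.80, 0.57 and 0.51 (edgeR adjusted p = 0.00505, 0.0134 and 0.0324). Its relative Slc12a4 rose by 3.17, 2.45 and 2.84 (edgeR adjusted p = 0.00597, 0.0248 and 0.0103) from a low level of 0.0641 to 0.940 CPM in the controls to 1.74 to 6.50, 1.21 to 4.49 and 1.91 to 5.18 CPM. The highest of these controls is control culture 1, without which the mean of the controls fell from 0.411 to 0.235 CPM and the log2 fold changes were 4.00, 3.32 and 3.69, and the lowest is under the limit of 3 counts for its library, 0.0961 CPM. The gene that fell was Slc4a10, a sodium-coupled bicarbonate transporter at 0.362 ± 0.0829 CPM in control and 0.0919 ± 0.0541 CPM after Compound-1 (-1.96, SE 0.61, edgeR adjusted p = 0.0343). Of 5 carbonic anhydrases tested, Car2, which supplies bicarbonate in the cytosol, rose in MYO5BΔIEC (1.31, edgeR adjusted p = 0.0163) and treated enteroids (1.23, edgeR adjusted p = 0.00852). Car9, a membrane-bound member, rose in MYO5BΔIEC and MYO5B(G519R) once control culture 1 was left out (0.50 and 0.49, edgeR adjusted p = 0.0404 and 0.0255).

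Receptors and regulators are given by role, with few genes in each, beside the 13.5%, 13.1% and 15.7% of all genes that rose and the 13.8%, 13.7% and 13.7% that fell in the 3 comparisons. Of 5 receptors of secretagogues tested, the ATP and UTP receptor P2ry2 rose by 1.18, 0.97 and 1.26 (edgeR adjusted p = 0.00378, 0.0062 and 0.00608) and the prostaglandin receptor Ptger4 by 0.80, 0.79 and 1.32 (edgeR adjusted p = 0.0035, 0.00525 and 0.00398), and Vipr1, a receptor of vasoactive intestinal peptide, rose in treated enteroids (1.06, edgeR adjusted p = 0.0266) and, without control culture 1, in MYO5B(G519R) (0.53, edgeR adjusted p = 0.0258). Of 6 adenylate cyclases, Adcy9 and Adcy6 rose in all 3 comparisons, by 0.50 to 0.96. Of 9 kinases and scaffolds, 3 rose in each comparison, the kinases Wnk1 and Wnk4, which act on chloride transporters, and Slc9a3r1, which encodes the scaffold NHERF1 that binds CFTR. Slc9a3r1 had 153.6 to 238.9 CPM in the controls, against 347 to 402.9 in MYO5BΔIEC, from 288.5 to 390.3 in MYO5B(G519R) and from 354.8 to 587.3 after Compound-1, with log2 fold changes of 0.84, 0.66 and 1.14 (edgeR adjusted p = 0.00487, 0.0151 and 0.00497). Leaving out control culture 1 gave 4, 4 and 4 that rose and 0, 1 and 1 that fell of these 9. The added genes were Ahcyl1, the regulator IRBIT, which rose in MYO5BΔIEC and MYO5B(G519R) (0.69 and 0.56, edgeR adjusted p = 0.00575 and 0.00393), the kinase gene Stk39, which rose in treated enteroids (0.34, edgeR adjusted p = 0.0486), and the scaffold gene Pdzk1, which fell in MYO5B(G519R) and treated enteroids (-1.14 and -1.44, edgeR adjusted p = 0.00268 and 0.0102). Of the guanylate cyclase C system, Guca2a, the ligand guanylin, fell by 0.95 in MYO5B(G519R) (SE 0.26, edgeR adjusted p = 0.0257) with all controls, and Gucy2c, the receptor, did not pass. Control culture 1 had 76.0 CPM of Guca2a against a mean of 176 CPM in the other controls, and without it Guca2a fell in all 3 comparisons (-0.68, -1.14 and -0.87, edgeR adjusted p = 0.0305, 0.000157 and 0.00277) and Guca2b, the ligand uroguanylin, in MYO5B(G519R) and treated enteroids (-0.84 and -0.55, edgeR adjusted p = 0.00637 and 0.0469). Of 6 aquaporins tested, 1 rose in each comparison, and 1, 1 and 3 fell in MYO5BΔIEC, MYO5B(G519R) and treated enteroids. Aqp4 fell by 1.03, 0.65 and 1.39 (edgeR adjusted p = 0.00242, 0.018 and 0.0314) and the low Aqp7, at 0.519 to 0.909 CPM in the controls, rose by 2.27, 1.80 and 1.56 (edgeR adjusted p = 0.00325, 0.00462 and 0.0107). Aqp8 fell by 3.60 in treated enteroids (SE 0.93, edgeR adjusted p = 0.0173), with 0.157 to 3.62 CPM in the controls and 0 to 0.369 CPM in the treated cultures. The groups overlapped through control culture 1, the lowest control, and without it Aqp8 fell in all 3 comparisons (-3.47, -2.10 and -3.97, edgeR adjusted p = 0.00803, 0.00469 and 0.00151). Aqp11 fell in treated enteroids as well (-0.67, SE 0.21, edgeR adjusted p = 0.0391), and in all 3 comparisons once control culture 1 was left out (-0.51, -0.65 and -0.83, edgeR adjusted p = 0.0109, 0.000151 and 0.000974).

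**Figure D5:**
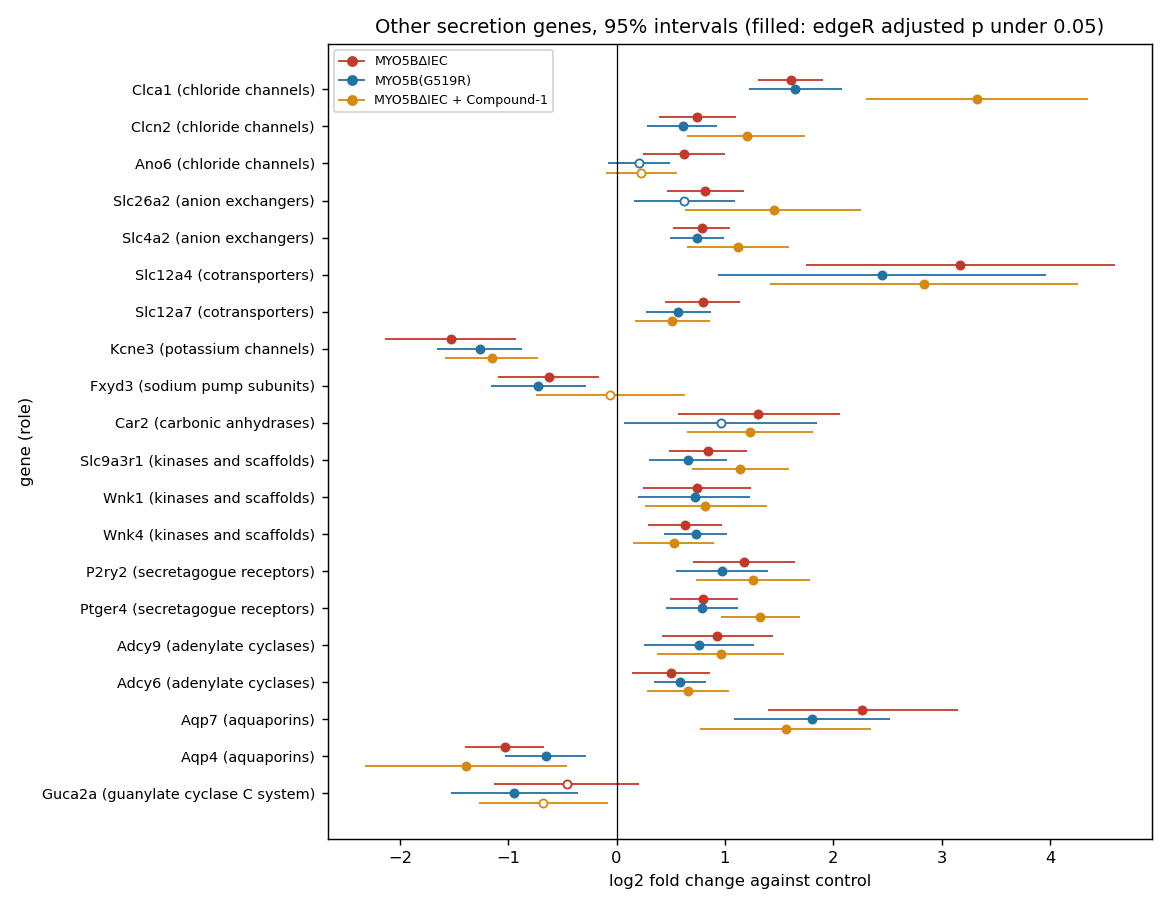
Log2 fold change against control (all 4 controls) with 95% intervals of the other secretion genes that were named in MYO5BΔIEC or MYO5B(G519R), with the role of each gene; filled points have an edgeR adjusted p under 0.05. Kcne3, Fxyd3, Aqp4 and Guca2a lie to the left of 0 and the other genes to the right.

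Compound-1 was compared with vehicle in MYO5BΔIEC enteroids. None of the 9 genes passed, beside 0% of 18037 genes tested in edgeR, where 1355 genes (7.51%) had an unadjusted p under 0.05, 91 genes passed in DESeq2, 12 passed in edgeR without the filter on low counts and none in limma. Ano1 was the 1 gene of the 9 whose groups did not overlap, as in 2.86% of all genes, with 44.9 to 104.3 CPM after Compound-1 and 24.7 to 39.1 CPM after vehicle. Its log2 fold change was 0.99 (SE 0.26, 95% interval 0.42 to 1.55, edgeR adjusted p = 0.532, DESeq2 adjusted p = 0.0586), and 0.64 without treated culture 3, the highest. Slc26a3 differed by 0.04 (95% interval -0.36 to 0.44) and Cftr by -0.15 (-0.58 to 0.29). The intervals of Slc26a6 (-0.36 to 0.24), Kcnq1 (-0.36 to 0.17), Slc12a2 (-0.49 to 0.18) and Atp1b1 (-0.58 to 0.20) left room for changes of up to 0.58 on the log2 scale, and those of Slc4a4 (-0.82 to 0.46) and Kcnn4 (-0.39 to 0.69) for larger ones. None of the 53 other genes tested passed either. The largest absolute log2 fold change among them was that of Clca1 (1.69, SE 0.42, edgeR adjusted p = 0.532), with 132.8 to 712 CPM after Compound-1 against 101.3 to 137.5 CPM.

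MYO5B(G519R) and MYO5BΔIEC enteroids were also compared directly. None of the 9 genes passed, beside 0.00557% of 17943 genes tested (1 gene), and 772 genes (4.30%) had an unadjusted p under 0.05. All 9 overlapped between the groups. The lowest p was that of Slc26a6, with 85.3 to 147.3 CPM in MYO5B(G519R) and 120.8 to 173.2 CPM in MYO5BΔIEC (log2 fold change -0.43, SE 0.17, 95% interval -0.81 to -0.06, edgeR adjusted p = 0.838). Atp1b1 followed at -0.33 (95% interval -0.69 to 0.02, edgeR adjusted p = 0.838). Slc26a3 differed by -0.29 (-0.75 to 0.16), Ano1 by -0.25 (-0.77 to 0.27), Cftr by -0.15 (-0.42 to 0.13) and Slc4a4 by -0.19 (-0.78 to 0.41). The intervals of the other 3 were -0.18 to 0.30 for Slc12a2, -0.14 to 0.34 for Kcnq1 and -0.21 to 0.54 for Kcnn4, and all intervals give the size of difference that these 8 cultures did not exclude.

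The genes whose levels ran most like those of the apical and loading transporters were taken from the 13545 genes with a mean of at least 1 CPM, by Pearson's r of log2(CPM + 1) over the 16 cultures. These r values describe cultures that share 4 groups and the control culture that stood apart, and carry no test. Slc26a3 was most like Slc35b1 (r = 0.977, and 0.981 over the 15 cultures without control culture 1) and Vipas39 (r = 0.971 in both). Cftr was most like Zfp639 (r = 0.950, and 0.916 without control culture 1) and Gm17491 (r = 0.950 and 0.883). Slc26a6 was most like Abcc2 (r = 0.915 and 0.893) and Flvcr2 (r = 0.898 and 0.872). Slc12a2 was most like Gid4 (r = 0.932 and 0.847) and Soat1 (r = 0.923 and 0.842). The likeness of Cftr, Slc26a6 and Slc12a2 to their nearest genes was lower without control culture 1, and that of Slc26a3 was about the same.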

How the data were processed

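Levels of RNA in 16 enteroid cultures were taken from the tables that the authors deposited. According to the methods and the submitters' processing notes, paired-end reads of poly(A) RNA were aligned by the authors to GRCm38 (mm10), using STAR 2.5, and assigned to genes by HTSeq 0.6.1, which gave the deposited counts. TopHat and DESeq2 are also named. The deposited FPKM are the authors' counts per gene length and library size. Handling of strand and of reads with several positions is not given in the sources used here, so overlapping genes may share reads. Deposited columns of gene names and positions were used as given, and groups were taken from the labels. Replicates are cultures described as coming from separate mice.

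The 9 genes and all gene lists were chosen with earlier results of these data known. Tests on the counts used edgeR 4.0.16 in R 4.3.3 (TMM, 10 counts or more in 2 or more of 8 libraries, quasi-likelihood F test, Benjamini-Hochberg, threshold 0.05), each pair of groups in a fit of its own, and 95% intervals were taken from the fit's t quantile. All 9 genes are named in each comparison, and of each role of the other genes up to 3 past the threshold, by largest absolute log2 fold change, with a mean of at least 1 CPM. Genes named as not tested, Gucy2c, Guca2b, Kcnk1, Slc4a10, Aqp11, genes given for a change of call without control culture 1, and Clca1 in the comparison of Compound-1 with vehicle were named after their values were seen. Some genes of these lists are not reported here and were left out of the counts by role. The edgeR fit, also with DESeq2 size factors, replicate block and length offset, was tested on simulated counts, as were DESeq2 and limma on log2(FPKM + 1). The other alternatives and the motif search were not tested in this way. Alternatives were DESeq2 1.42.0 (Wald test), its size factors in edgeR, limma 3.58.1 on log2(FPKM + 1) and log2(FPKM + 0.1), filterByExpr, no filter, all 4 groups in 1 fit, a replicate block, mitochondrial genes left out of library sizes, an offset for gene length, and each culture left out. The other secretion genes and the markers were read without control culture 1 as an alternative chosen after seeing the data.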

Additional observations from a re-analysis of the deposited data

Results flagged for a closer look

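In groups of 4 cultures, a culture was singled out where its gap to the nearest of the others exceeded, as a share of the group's range, Dixon's 95% critical value, which chance alone does in about 1 of 20 groups. Of 40 groups of the 9 genes and Myo5b, 5 were singled out, 3 of them through control culture 1. They were Cftr, with 532.9 CPM in control culture 1 against 218 to 229.8 in the other controls, Kcnq1, with 199 CPM against 85.2 to 100.9, and Atp1b1, with 1301 CPM against 673.4 to 745.4. The other 2 were in MYO5B(G519R) culture 4, where Slc4a4 had 70.9 CPM against 132.3 to 136.9 in the other 3 cultures and Kcnn4 had 93.2 CPM against 70.8 to 73.7.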

How the results depend on the processing

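Slc26a3 kept its direction and its side of the threshold against control under every alternative in all 3 comparisons. The number of the 9 genes called in MYO5BΔIEC against control was 2, and 5 with all 4 groups in 1 fit and 3 in 6 other fits, which added Slc26a6 (DESeq2 size factors, DESeq2, filterByExpr and both limma fits) or Cftr (offset for gene length). In MYO5B(G519R) it was 2, and 1 with DESeq2 size factors, the replicate block and both limma fits, where Cftr was lost, and 3 with DESeq2, with no filter and with all 4 groups in 1 fit, which added Ano1. In treated enteroids against control it was 2, and 4 with DESeq2 and with all 4 groups in 1 fit, and 3 with the replicate block, no filter or the offset for gene length (Cftr added) and with DESeq2 size factors and both limma fits (Slc26a6 added). Leaving out 1 culture gave 1 to 5, 1 to 7 and 2 to 5 of the 9, and 2963 to 7474, 2880 to 8146 and 2957 to 7459 of all genes, each highest without control culture 1. Over all genes, Compound-1 against vehicle gave 0 calls in edgeR, 91 in DESeq2 and 12 without the filter, and 0 with each culture left out. MYO5B(G519R) against MYO5BΔIEC gave 1, and 4 in DESeq2, 2 without the filter, 0 in both limma fits and 0 to 2 with a culture left out. Reversals were all in fold changes near 0 that did not pass. Slc12a2 in MYO5B(G519R) turned to 0.01 with the replicate block and to 0.04 in both limma fits, and Slc26a6 there to -0.03 with the offset for gene length. With a culture left out, Slc12a2 ranged from -0.22 to 0.15 in MYO5BΔIEC, from -0.17 to 0.24 in MYO5B(G519R) and from -0.36 to 0.04 after Compound-1, and Slc26a6 from -0.11 to 0.21 in MYO5B(G519R). In Compound-1 against vehicle, Slc26a3 ranged from -0.10 to 0.15, Slc26a6 from -0.14 to 0.03, Slc4a4 from -0.38 to 0.03 and Kcnn4 from -0.12 to 0.30, and in MYO5B(G519R) against MYO5BΔIEC Slc4a4 ranged from -0.38 to 0.02. The cause of these changes was not tested. Replicate numbers did not pair the samples under the rule that every same-number correlation of deviations exceed 0.1 (-0.233 to 0.278 in the 3 comparisons with control and -0.159 to 0.103 for Compound-1 against vehicle). In MYO5B(G519R) against MYO5BΔIEC they were 0.147, 0.0927, 0.526 and 0.614, and 3 of 4 numbers had their best partner in the same number, which is a hint of pairing from the data, and the block there called 1 gene and none of the 9. Besides the Cftr call lost in MYO5B(G519R), the replicate block added Cftr in treated enteroids against control (-0.75, edgeR adjusted p = 0.0474).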
